A study of Mus musculus with 6 samples.

Results

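The genes described here are 42 mouse genes that act in mitosis and at the G2/M transition of the cell cycle. They were chosen by name, as the rows of the deposited table whose gene name is one of 42 listed symbols. All 42 are among the 25251 genes of the table, and all 42 passed the filter on low values, which asked for 10 normalized counts in the mean of the 6 libraries and kept 14639 genes. RNA was sequenced from CT26 tumours grown under the skin of wild-type BALB/c mice. CT26 cells derive from a mouse colon carcinoma. The 3 control samples came from mice given solvent, and the 3 irinotecan samples from mice given CPT-11 (irinotecan) into the peritoneum at 25 mg/kg every 4 days, a schedule that began after tumours had grown to 100 mm3. The sources used here do not give the age of the mice, the number of doses or when, after the last dose, tumours were taken.

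Mitosis is started by the kinase CDK1 bound to cyclin A or cyclin B, which CDC25 phosphatases switch on and which works beside the Polo and Aurora kinases. The spindle checkpoint then holds the anaphase-promoting complex, a ubiquitin ligase, inactive until kinetochores have bound microtubules, and kinesins and cytokinesis proteins finally separate the chromosomes and the cells. Most of these genes are transcribed in a wave late in the cell cycle, kept off in resting cells by the DREAM complex and switched on by MuvB with B-MYB and FOXM1, so their RNA is widely read as a sign of dividing cells. Irinotecan is the prodrug of a topoisomerase I poison, and cells damaged by such poisons while copying DNA can stop before mitosis. In whole tumours, fewer dividing cells and less of the RNA per cell cannot be told apart.

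The libraries held 13940650 to 15656894 reads, recovered from the deposited values. Whether the samples of a group are from different mice is not stated in the labels, so that p-values reflect only the spread between samples, which may be technical. Irinotecan replicate 1 stood apart, with reads for 19040 genes against 20571 to 21426 in the other 5 libraries, and the values of the groups of genes are given with and without it. The labelled cell type is a colon cancer cell. Of 5 epithelial markers 3 passed the filter, and all 5 summed to 121.2 to 295.7 normalized counts, while Epcam, a defining epithelial adhesion gene, was at 0 in 5 libraries and at 2.9 in irinotecan replicate 2. Summed macrophage markers, all 6 tested, were 22732 to 23755 in the controls and 11024, 23908 and 20227 in irinotecan replicates 1, 2 and 3. Lyz2 made up most of these sums, with 13075 to 13933 in the controls and 6247, 15758 and 12757 in the irinotecan libraries. For Adgre1, Csf1r and Mrc1 all irinotecan libraries lay below all controls, and for Cd68, Lyz2 and C1qa the groups overlapped. Summed endothelial markers, all 5 tested, were 2161 to 2485 in the controls and 1338 to 1852 in the irinotecan libraries. Neutrophil markers, all 4 tested, summed to 289.6 to 494.8 in the controls and 131.4 to 209.8 in the irinotecan libraries. The sums did not overlap for either list, but the groups did for Kdr of the endothelial list and for S100a8 and S100a9 of the neutrophil list. Of all tested genes, 7.89% had all irinotecan libraries below all controls. The 8 T-cell markers, all tested, summed to 257.6 to 374.3 in the controls and 251.6, 506.6 and 363.9 in the irinotecan libraries. Fibroblast markers, all 5 tested, summed to 25965 to 35388 in the controls and 31343 to 34076 in the irinotecan libraries. Skeletal muscle markers, all 5 tested, summed to 312.2, 23.0 and 237.2 in the controls and 109.9, 195.5 and 678.1 in the irinotecan libraries. B-cell markers, of which 1 of 4 was tested, summed to 15.4 to 33.5 over the 6 libraries. The part of these other cells in the values below was not tested.

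Many genes of this wave carry in their promoter a cell cycle genes homology region, or CHR, the element that MuvB binds, and a CCAAT box, the element of the factor NF-Y. RefSeq promoter sequences of mouse build GRCm38.p6, from 250 bases before to 50 bases after each start, were found for 36 of the 42 genes. They were searched on both strands for the CHR, as TTTGAA or TTCGAA, and for the CCAAT box, as CCAAT. Matches of both kinds could share a letter. In Cdca8 a CHR lies at bases 14 to 19 after the start and a CCAAT box at bases 19 to 23. A CHR was present for 27 of the 36 genes (75%), against 16.6% of the 10308 tested genes with such a sequence. A CCAAT box was present for 28 (77.8%, against 42.8%), and both for 24 (66.7%, against 8.2%). A match describes the letters in the window and is not evidence of binding.

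Stretches of 150 bases, from 120 before to 30 after the start, are shown for the 3 genes with the highest and the 3 with the lowest fold change among those with a sequence, so that the promoters at both ends can be compared. Each is written 5′ to 3′ on the gene's strand, with capitals marking the CHR (TTTGAA, or TTCAAA where it lies on the other strand) and the CCAAT box (CCAAT, or ATTGG on the other strand). They lie at chr1:189688057-189688206 (minus strand) for Cenpf, chr7:80294331-80294480 (plus) for Prc1, chr19:37376262-37376411 (plus) for Kif11, chr7:122159315-122159464 (plus) for Plk1, chr10:69352883-69353032 (minus) for Cdk1 and chr2:164769809-164769958 (plus) for Ube2c.
Cenpf: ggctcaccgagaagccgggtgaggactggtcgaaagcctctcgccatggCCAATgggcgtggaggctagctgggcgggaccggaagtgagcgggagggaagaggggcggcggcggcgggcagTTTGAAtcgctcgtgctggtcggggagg
Prc1: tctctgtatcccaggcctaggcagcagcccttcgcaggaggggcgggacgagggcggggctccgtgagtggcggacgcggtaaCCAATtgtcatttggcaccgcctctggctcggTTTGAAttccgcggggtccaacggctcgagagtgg
Kif11: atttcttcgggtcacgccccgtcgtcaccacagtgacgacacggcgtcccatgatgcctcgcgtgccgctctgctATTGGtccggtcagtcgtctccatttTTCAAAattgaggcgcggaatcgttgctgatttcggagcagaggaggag
Plk1: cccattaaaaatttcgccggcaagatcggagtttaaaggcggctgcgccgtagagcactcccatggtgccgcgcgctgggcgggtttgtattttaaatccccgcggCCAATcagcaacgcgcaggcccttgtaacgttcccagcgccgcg
Cdk1: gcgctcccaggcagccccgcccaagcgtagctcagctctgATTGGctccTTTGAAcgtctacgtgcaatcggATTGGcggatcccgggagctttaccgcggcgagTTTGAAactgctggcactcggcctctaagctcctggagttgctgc
Ube2c: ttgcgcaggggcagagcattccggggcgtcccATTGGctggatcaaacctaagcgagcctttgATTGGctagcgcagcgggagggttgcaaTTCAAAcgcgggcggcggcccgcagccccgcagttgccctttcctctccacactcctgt

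All 6 windows hold both motifs, those at the top of the order and those at the bottom alike. The CHR of Plk1 lies at bases 31 to 36 after the start, just past the stretch shown. Over the 27 genes with a CHR the median log2 fold change, irinotecan over control, was 0.05, and 18 were positive. Over the 9 genes without one it was 0.020, and 5 were positive. Without irinotecan replicate 1 the medians were 0.148 (26 of 27 positive) and 0.177 (9 of 9), in the opposite order.

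All 42 genes were expressed in the control tumours. Per kilobase of the deposited gene length, their median control level was 321.7 normalized counts, against 90.4 over all tested genes. The highest control levels per kilobase were those of Ube2c, the ubiquitin-conjugating enzyme of the anaphase-promoting complex (1055 ± 29.1, SD, n = 3), and of Cdc20, that complex's activator (964 ± 94.2). Next came Anln, the actin-binding scaffold of the cleavage furrow (852 ± 52.0), Racgap1, a component of centralspindlin (794 ± 43.5), and Mki67, the coat protein of mitotic chromosomes that serves as the Ki-67 proliferation marker (758 ± 70.9). Ube2c and Cdc20 differed by less than the SD of Cdc20, and Racgap1 and Mki67 by less than the SD of either. The lowest levels per kilobase were those of Cdca8, or borealin (159 ± 9.47), Nuf2 of the NDC80 complex (164 ± 16.2), the large centromere protein gene Cenpf (168 ± 25.2) and the checkpoint kinase gene Ttk (182 ± 4.85), of which the first 3 did not differ beyond their spread. By role, the median control level per kilobase was 578.6 for the 4 cytokinesis genes, 413.3 for the 9 entry kinases, cyclins and phosphatases, 360.6 for the 4 chromosomal passenger genes and 346.7 for the 5 spindle-binding genes. It was 280.2 for the 8 spindle checkpoint and anaphase-promoting complex genes, 232.1 for the 6 kinetochore and centromere genes and 229.2 for the 5 kinesins, so the kinetochore genes and kinesins were the lowest groups and cytokinesis genes, after Mki67 alone, the highest.

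**Figure D1:**
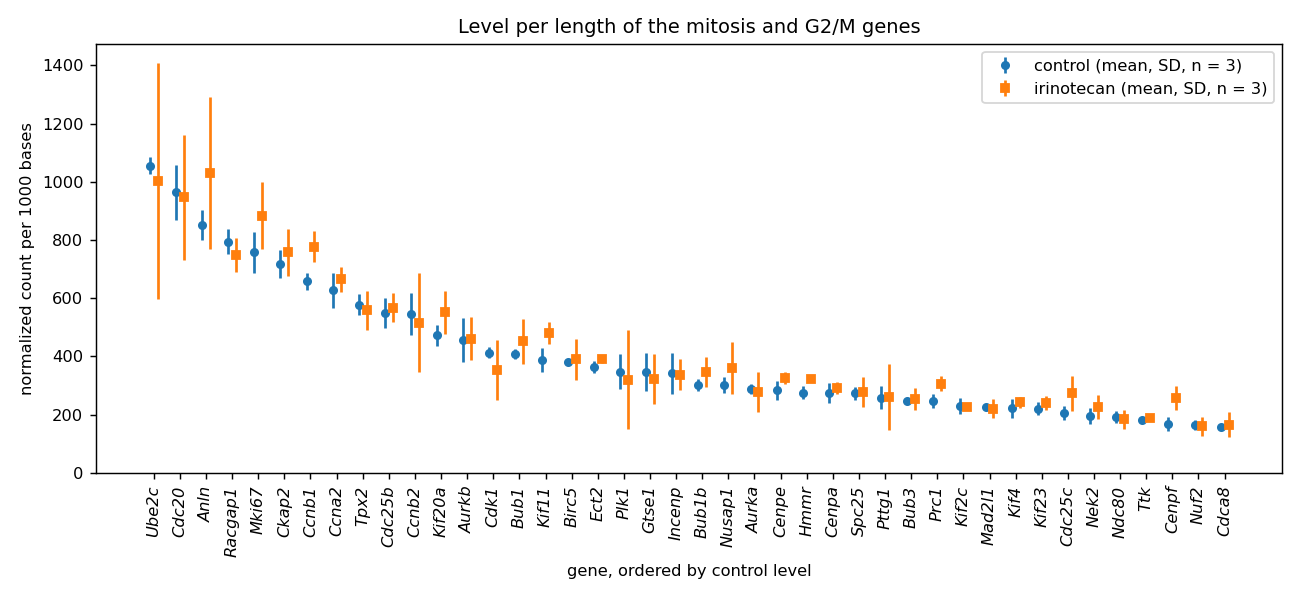
Mean normalized count per 1000 bases of gene length (linear axis from 0) for each of the 42 genes, ordered by control level, with circles for control, squares for irinotecan and bars for the SD of 3 libraries. Control means run from 1055 for Ube2c down to 159 for Cdca8, and the SD bars of the groups overlap for most genes.

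Irinotecan against control asks whether the drug left the tumours with a different level of mitotic RNA. With limma on log2(normalized count + 1) and Benjamini-Hochberg adjustment over 14639 genes, none of the 42 genes was called at an adjusted p under 0.05, and neither was any gene of the table (percent called 0.0%). The lowest adjusted p among the 42 was 0.743. At an unadjusted p under 0.05 there were 2 of the 42, Cenpf and the midzone protein gene Prc1, both with positive fold changes, against 5.77% of all tested genes (2.68% with a positive and 3.08% with a negative fold change). All 3 irinotecan libraries lay above all 3 controls for 5 of the 42 (Cenpf, Ccnb1, Kif11, Hmmr and Prc1), against 6.68% of all tested genes, and they lay below all 3 for none, against 7.89%.

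The fold changes were small. Their median over the 42 genes was 0.047 on the log2 scale, from -0.27 (Plk1) to 0.61 (Cenpf), and 27 were positive and 15 negative. Over all tested genes the median was -0.014 and 48.2% were positive. The median size of the fold change without regard to sign was 0.11 for the 42 genes and 0.21 for all tested genes. The 95% interval of the log2 fold change lay wholly within a 2-fold difference in either direction for 40 of the 42 (95.2%), against 66.0% of all tested genes. The exceptions were Plk1, whose interval reached -1.20, and Cenpf, whose interval reached 1.01. For these 40 genes, then, the intervals held no difference of 2-fold or more, though differences under 2-fold remain within them. The 42 genes were higher in level than tested genes at large (median control level per kilobase 321.7 against 90.4). Genes of like level were not compared, so the shares above do not set mitotic genes apart from others of their level.

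**Figure D2:**
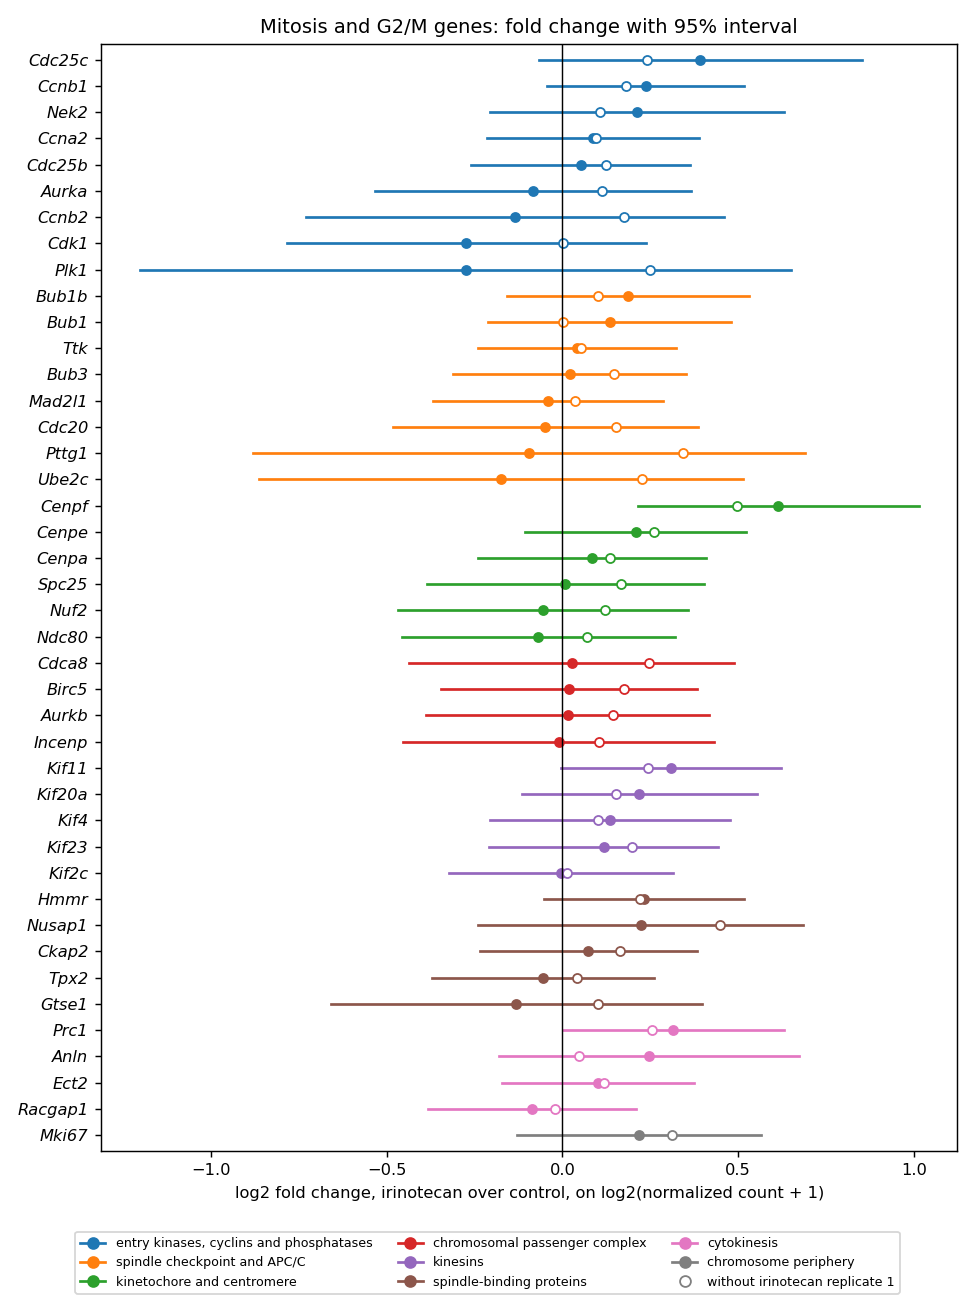
Log2 fold change, irinotecan over control, for the 42 genes by role, with filled points and 95% intervals from limma on all 6 libraries and open points for the fit without irinotecan replicate 1. Filled points run from -0.27 to 0.61, and 41 of the 42 open points lie above 0.

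The entry kinases, cyclins and phosphatases were spread around 0, with 5 of 9 positive, none called and a median log2 fold change of 0.05. It was 0.125, with 9 of 9 positive, without irinotecan replicate 1. Cdk1 (chr10:69335146-69352938), the kinase that drives entry into mitosis, had normalized counts of 2137, 1953 and 2028 in control replicates 1, 2 and 3. Its irinotecan replicates 1, 2 and 3 had 1153, 2086 and 1995. Only irinotecan replicate 1 lay outside the controls, and the fold change of -0.27 (SE 0.22, adjusted p = 0.752) was 0.0015 without it.

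Among the cyclins, Ccnb1 (chr13:100778650-100786570), the cyclin B1 partner of CDK1, had 2893, 2794 and 2646 normalized counts in the controls and 3536, 3193 and 3101 in the irinotecan libraries. The groups did not overlap, and the log2 fold change was 0.24 (SE 0.12, 95% interval -0.04 to 0.52, adjusted p = 0.743). Ccnb2, encoding cyclin B2, had 926, 867 and 716 in the controls and 491, 916 and 964 in the irinotecan libraries, so the same library that was highest for cyclin B1 was lowest for cyclin B2. The log2 fold change of Ccnb2 was -0.14 (SE 0.26) with and 0.18 without that library. Ccna2, encoding cyclin A2, ranged from 2277 to 2748 in the controls and from 2562 to 2899 in the irinotecan libraries, a log2 fold change of 0.09 (SE 0.13).

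Plk1 (chr7:122159439-122169873), the Polo-like kinase of centrosome maturation and mitotic exit, had 870.4, 806 and 615 normalized counts in the controls. In the irinotecan libraries it had 302, 780.2 and 1033, with replicate 1 below and replicate 3 above every control. Its log2 fold change of -0.27 had the largest error of the 42 (SE 0.40), and it was 0.25 without irinotecan replicate 1. Aurka, the centrosomal Aurora kinase, showed the same order at a smaller scale, with 679 to 770.3 in the controls and 525, 707 and 877 in irinotecan replicates 1, 2 and 3, and its log2 fold change was -0.08 (SE 0.20) with and 0.11 without replicate 1.

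The phosphatase gene Cdc25c, whose product activates CDK1, had 439, 344 and 412 normalized counts in the controls and 643, 408 and 536 in the irinotecan libraries. In this gene 1 irinotecan library lay inside the range of the controls, and the log2 fold change of 0.39 (SE 0.20, adjusted p = 0.743) was the highest of the entry genes and was 0.24 without irinotecan replicate 1. Its relative Cdc25b had a log2 fold change of 0.05 (SE 0.14), and 0.13 without that library. Nek2, a kinase of centrosome separation, had 0.21 (SE 0.18), and 0.11 without it.

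Spindle checkpoint and anaphase-promoting complex genes had a median log2 fold change of -0.010, with 4 of 8 positive and none called. The median was 0.125, and 8 of 8 were positive, without irinotecan replicate 1. Checkpoint kinases and adaptors had log2 fold changes from -0.04 for Mad2l1 to 0.19 for Bub1b. Bub1, a kinetochore kinase, had 1731, 1739 and 1866 normalized counts in the controls and 2344, 1881 and 1687 in the irinotecan libraries, and Bub1b, which encodes the checkpoint inhibitor BUBR1, had 1237 to 1398 and 1234 to 1648. Both groups of libraries overlapped for each gene, and the log2 fold change was 0.13 for Bub1 and 0.19 for Bub1b (SE 0.15 each). It was 0.0029 for Bub1 and 0.10 for Bub1b without irinotecan replicate 1. Ttk, the kinase MPS1 that starts checkpoint signalling, varied least among the irinotecan libraries of this group, with 923, 889.7 and 876 in the controls and 905, 893 and 970.0 in the irinotecan libraries. Bub3, which docks BUB1 at the kinetochore, and Mad2l1, encoding the checkpoint effector MAD2, had fold changes of 0.02 and -0.04 on the log2 scale (SE 0.14 each), and 0.15 and 0.035 without irinotecan replicate 1.

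The genes that act on the side of anaphase were low in irinotecan replicate 1. They are also short, at 2600 bases for Ube2c, 2000 for Pttg1 and 1868 for Cdc20. In that library 1 of the 9 members under 3000 bases, Cdc25c, lay above its control mean. The short entry genes Plk1 and Ccnb2 lay below theirs. Whether role or length goes with the low values was not tested. Ube2c (chr2:164769898-164778822) had 2712, 2829 and 2688 normalized counts in the controls and 1394, 3339 and 3085 in the irinotecan libraries. Pttg1, encoding securin, the inhibitor of separase that is destroyed at anaphase, had 600.2, 511 and 439.6 in the controls and 261, 661 and 642 in the irinotecan libraries. For both genes irinotecan replicate 1 was below every control and replicates 2 and 3 above every control. The log2 fold change of Ube2c was -0.17 (SE 0.30), and 0.23 without that library. That of Pttg1 was -0.10 (SE 0.34), and 0.34 without it. The value of Pttg1 in irinotecan replicate 1 was the lowest of all 42 genes in any library, at 254 reads (95% Poisson interval 223.7 to 287.2, counting error only). Cdc20 had 2004, 1689.6 and 1711 in the controls and 1312, 1937 and 2061 in the irinotecan libraries, again with replicate 1 lowest, and its log2 fold change was -0.05 (SE 0.19) with and 0.15 without that library.

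Kinetochore and centromere genes had a median log2 fold change of 0.047, with 4 of 6 positive, and of 0.152, with 6 of 6 positive, without irinotecan replicate 1. Cenpf (chr1:189640606-189688086), whose product joins the outer kinetochore in late G2 and binds dynein regulators, had 2762, 2861 and 2142 normalized counts in the controls. The irinotecan libraries had 4628, 3311 and 3959. All 3 lay above the highest control, and replicate 1, which was low for Cdk1 and Plk1, was the highest. The log2 fold change of 0.61 (SE 0.17, 95% interval 0.21 to 1.01) was the highest of the 42 genes, did not pass adjustment (adjusted p = 0.743), and was 0.50 without irinotecan replicate 1 (adjusted p = 0.242). In the authors' deposited table Cenpf had a log2 fold change of 0.62 and an adjusted p of 0.240, the lowest adjusted p of the 42 there. Cenpf is also the longest of the 42 genes, at 15433 bases. In irinotecan replicate 1, tested genes over 6000 bases had a median log2 difference of 0.29 from their control means. The 11 members of that length had a median of -0.042, with 5 above. Whether length goes with the high value of Cenpf in that library was not tested.

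Cenpe, a kinetochore motor that moves chromosomes to the spindle equator, had 2696, 2508 and 2128 normalized counts in the controls and 2618, 2898 and 2927 in the irinotecan libraries. Its log2 fold change was 0.21 (SE 0.14), with 1 irinotecan library inside the range of the controls. Cenpa, the histone variant that marks centromeres, had 0.08 (SE 0.14), and 0.14 without irinotecan replicate 1. The 3 subunits of the NDC80 complex among the 42 genes, which grips microtubules, had log2 fold changes of -0.07 for Ndc80, -0.06 for Nuf2 and 0.01 for Spc25 (SE 0.17 to 0.18), and irinotecan replicate 1 was the lowest library for each of them. Without it they had 0.071, 0.12 and 0.17. Ndc80 had 1387, 1122 and 1218 in the controls and 973, 1409 and 1199 in the irinotecan libraries.

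The chromosomal passenger complex, which corrects faulty attachments and later directs cleavage, gave the fold changes closest to 0. Its 4 genes had a median of 0.017, from -0.011 (Incenp, the scaffold) to 0.026 (Cdca8), with SEs of 0.16 to 0.20 and no gene called. The kinase gene Aurkb had 1604, 1248 and 1184 normalized counts in the controls and 1125, 1406 and 1546 in the irinotecan libraries, which overlapped. Birc5, encoding survivin, had 1317, 1290.2 and 1268 in the controls and 1053, 1475 and 1446 in the irinotecan libraries, again with replicate 1 below and replicates 2 and 3 above every control. Without irinotecan replicate 1 the median of the 4 genes was 0.161, from 0.10 for Incenp to 0.25 for Cdca8.

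Kinesins had a median log2 fold change of 0.136, with 4 of 5 positive and none called, and of 0.153, with 5 of 5 positive, without irinotecan replicate 1. Kif11 (chr19:37376403-37421859), the bipolar motor Eg5 that pushes the spindle poles apart, had 2059.5, 1896 and 1664 normalized counts in the controls and 2530.0, 2225 and 2196 in the irinotecan libraries. The groups did not overlap, and the log2 fold change was 0.31 (SE 0.14, adjusted p = 0.743). Kif20a, a motor of the central spindle, had 1706, 1955 and 1715 in the controls and 2280.5, 1774 and 2229 in the irinotecan libraries, with 1 irinotecan library inside the range of the controls. Kif23, the centralspindlin motor, had 0.12 (SE 0.14), Kif4, a chromosome-bound motor, 0.14 (SE 0.15), and Kif2c, which takes microtubules apart at centromeres, -0.0035 (SE 0.14). Kif23 had 0.20 and Kif2c 0.014 without irinotecan replicate 1.

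Among spindle-binding proteins 3 of 5 fold changes were positive, with a median of 0.074. It was 0.165, with 5 of 5 positive, without irinotecan replicate 1. Hmmr, which encodes a spindle-pole protein and hyaluronan receptor, had 1441, 1640.4 and 1413 normalized counts in the controls and 1786, 1721 and 1762 in the irinotecan libraries, without overlap (log2 fold change 0.23, SE 0.12, adjusted p = 0.743). Nusap1 (chr2:119618298-119651244), which bundles microtubules near chromosomes, had 1305, 1271 and 1099 in the controls and 1040.1, 1686 and 1652 in the irinotecan libraries. Irinotecan replicate 1 was the lowest library for Nusap1 and replicates 2 and 3 the highest, so its log2 fold change was 0.22 (SE 0.20) with all libraries and 0.45 without replicate 1 (adjusted p = 0.170). Tpx2, an activator of Aurora A, had -0.05 (SE 0.14), Ckap2, a microtubule stabilizer, 0.07 (SE 0.13), and Gtse1, which acts in G2 and on spindle microtubules, -0.13 (SE 0.23). They had 0.043, 0.16 and 0.10 without irinotecan replicate 1.

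Cytokinesis genes had a median log2 fold change of 0.17, with 3 of 4 positive. Prc1 (chr7:80294450-80316259), which cross-links the microtubules of the midzone, had 2217, 2066 and 1804 normalized counts in the controls and 2740.5, 2307 and 2523 in the irinotecan libraries. The groups did not overlap, and the log2 fold change was 0.32 (SE 0.14, adjusted p = 0.743). Anln had 8243, 7324 and 7603 in the controls and 12065, 7940.3 and 8010.1 in the irinotecan libraries, so its log2 fold change of 0.25 (SE 0.19) was 0.05 without irinotecan replicate 1. Anln is long, at 9063 bases, and whether length goes with its high value in that library was not tested. Racgap1 had 5972, 5393 and 5502 in the controls and 4819.7, 5463 and 5613 in the irinotecan libraries (log2 fold change -0.09, SE 0.13), and Ect2, the exchange factor that activates RhoA at the cleavage site, had 0.10 (SE 0.12). Without irinotecan replicate 1 the median of the 4 genes was 0.084.

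Mki67 (chr7:135689784-135716361) had 8303, 7689 and 6881 normalized counts in the controls and 7769.7, 8835 and 10076 in the irinotecan libraries. Replicates 2 and 3 lay above every control, replicate 1 within them, and the log2 fold change was 0.22 (SE 0.15, adjusted p = 0.743), and 0.31 without replicate 1. Between roles, then, the medians ran from -0.010 for checkpoint and anaphase genes to 0.17 for cytokinesis genes, beside 0.22 for Mki67 alone. That order rests on irinotecan replicate 1: without it cytokinesis genes had the lowest median (0.084), and the other 6 groups lay between 0.125 (checkpoint and anaphase genes) and 0.165 (spindle-binding genes). Within the entry genes the fold changes ran from -0.27 to 0.39, and no difference between roles was tested.

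**Figure D3:**
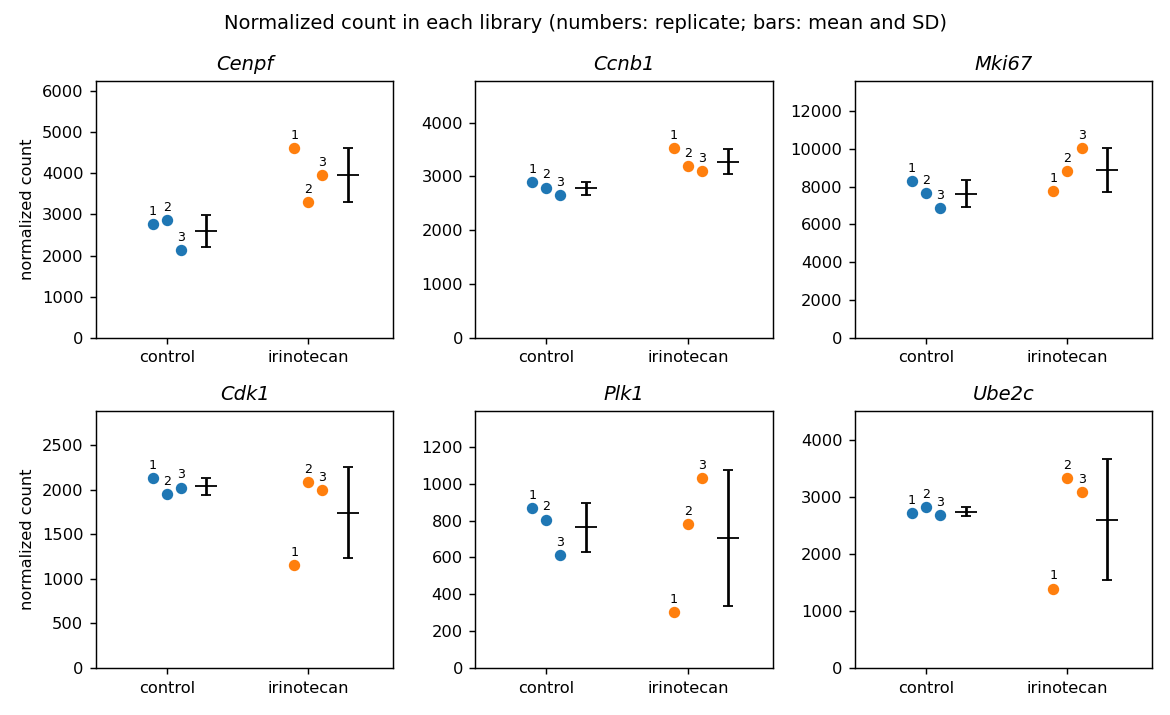
Normalized counts (linear axes from 0) of Cenpf, Ccnb1, Mki67, Cdk1, Plk1 and Ube2c, 1 point per library numbered by replicate, with bars for the mean and SD of each group. For Cenpf and Ccnb1 all irinotecan points lie above all control points, whereas for Cdk1, Plk1 and Ube2c irinotecan replicate 1 lies below every control.

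In every library but control replicate 2, most of the genes lay on 1 side of their control mean. Each gene's log2 difference from its own control mean was taken, and the median over the 42 genes was 0.106 in control replicate 1 (34 of 42 above), 0.0036 in replicate 2 (21 above) and -0.083 in replicate 3 (38 below). The irinotecan libraries gave -0.100 in replicate 1 (25 below), 0.091 in replicate 2 (32 above) and 0.201 in replicate 3 (36 above). The medians of the controls thus spanned 0.106 to -0.083, a span wider than the median fold change of the 42 genes. Summed over the 42 genes, the normalized counts were 86631, 81003 and 76287 in the controls and 84569, 88547 and 92767 in the irinotecan libraries, with irinotecan replicate 1 inside the range of the controls and the other 2 above it.

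Irinotecan replicate 1 differed from the rest in spread more than in level. The SD of the difference over the 42 genes was 0.471 in it, from -1.32 for Plk1 to 0.85 for Cenpf, against 0.130 in irinotecan replicate 2 and 0.151 in replicate 3. It was 0.092 to 0.096 in the controls. Each control is part of the control mean, which makes its SD smaller by construction, so control and irinotecan SDs are not directly comparable. Over all tested genes the same SD was 0.943 in irinotecan replicate 1 and 0.257 to 0.460 in the other 5 libraries. The 42 genes were therefore less scattered than tested genes at large in every library. Tested genes reach down to a mean of 10 normalized counts, while the 42 genes had 254 reads or more in each library. Log2 values of low genes scatter more, and genes of like level were not compared.

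**Figure D4:**
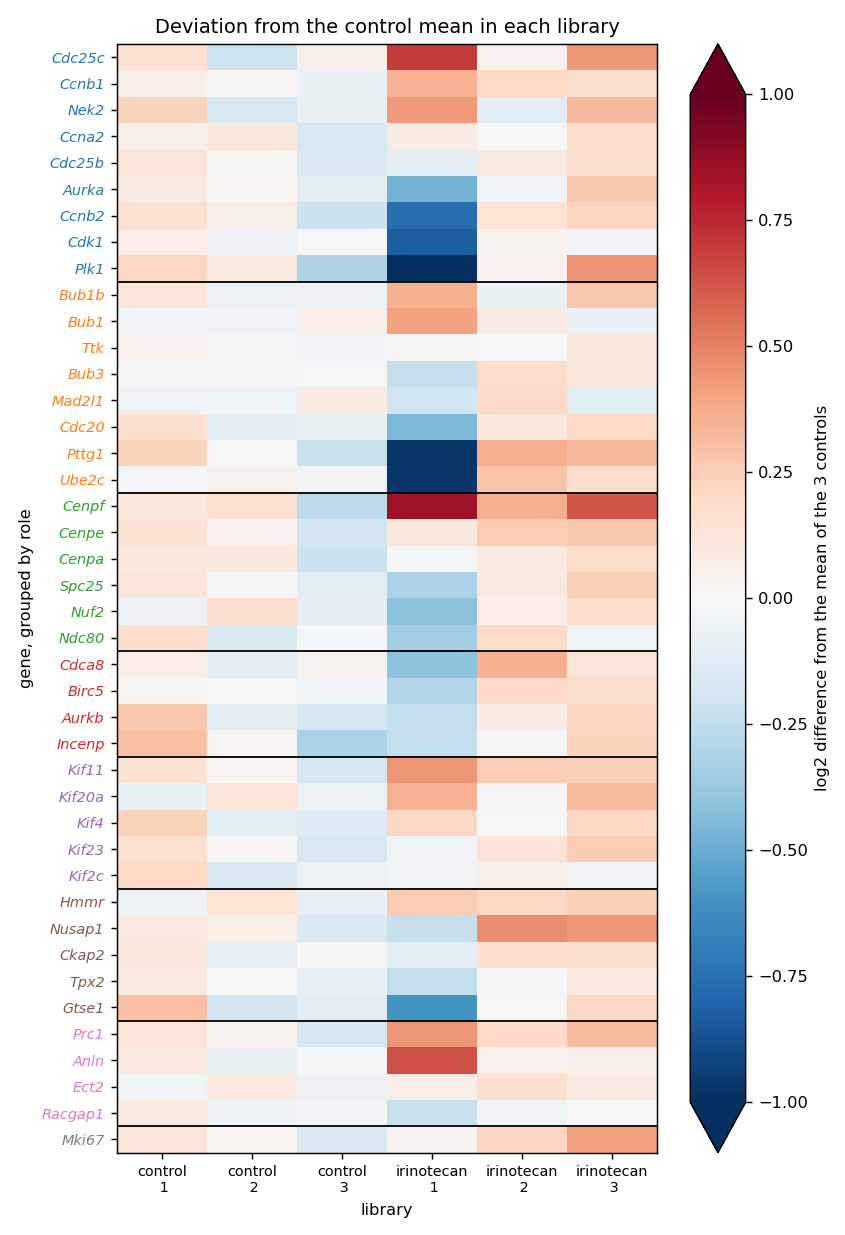
Heat map of the log2 difference from the control mean for each of the 42 genes (rows, grouped by role, with names coloured by role) in each of the 6 libraries (columns), red above and blue below, with the colour scale ending at 1 and -1. Irinotecan replicate 1 has the strongest colours of both signs, from -1.32 for Plk1 to 0.85 for Cenpf, and irinotecan replicate 3 is red for most genes (36 of 42 above).

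In irinotecan replicate 1 the difference was lowest in the shortest genes. Over the 9 members under 3000 bases the median difference was -0.60 and 1 was above the control mean, over the 22 members of 3000 to 6000 bases it was -0.0027 with 11 above, and over the 11 members longer than 6000 bases it was -0.042 with 5 above. Over all tested genes of these classes the medians in that library were -0.36, -0.023 and 0.29. Over the 42 members, Pearson's r of the difference with log2 length was 0.51 (Spearman's rho 0.46), and with the GC content of the transcripts -0.48 (rho -0.45), which are correlations across genes of 1 library that share its depth. Over all tested genes in that library r was 0.25 with length (rho 0.32) and -0.28 with GC content (rho -0.32). In irinotecan replicates 2 and 3 the members' correlations with length were 0.19 and -0.09, and those with GC content -0.28 and 0.15. The controls gave members' correlations of 0.48, -0.21 and -0.29 with GC content and of -0.28, 0.21 and 0.078 with length. That with GC content was as large in control replicate 1 as in irinotecan replicate 1, with the opposite sign. Members under 3000 bases had median differences of 0.077 and 0.21 in irinotecan replicates 2 and 3. With a smooth trend on GC content and length removed from every library, the members' median log2 fold change was 0.067 and 28 were positive.

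**Figure D5:**
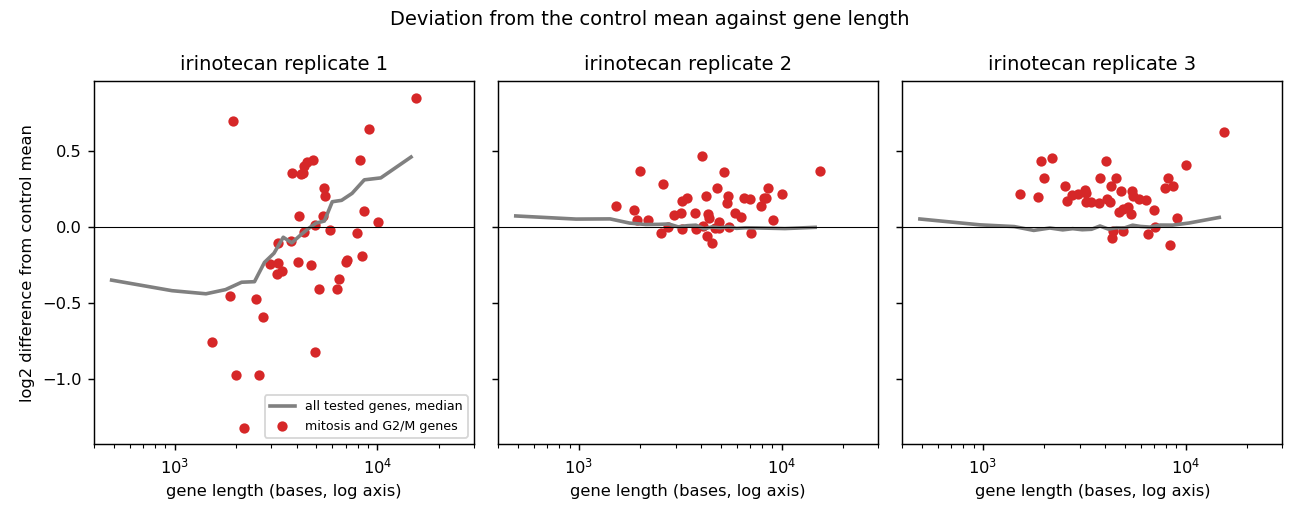
Log2 difference from the control mean against gene length in bases (log axis) in irinotecan replicates 1, 2 and 3, with points for the 42 genes and a grey line for the median of all tested genes in length bins of equal size. In replicate 1 the 9 genes under 3000 bases have a median of -0.60, and in replicates 2 and 3 they have medians of 0.077 and 0.21.

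Without irinotecan replicate 1 the 42 genes lay on 1 side. The log2 fold change was positive for 41 of the 42 (97.6%), against 49.6% of all tested genes, with a median of 0.146 against -0.0023. Racgap1, at -0.020, was the exception. An unadjusted p under 0.05 was reached by 8 of the 42 (19%, against 9.5% of all tested genes), namely Ube2c, Pttg1, Cenpe, Cenpf, Kif11, Nusap1, Prc1 and Mki67. With limma none of the 42 was called (lowest adjusted p 0.170, Nusap1), while 2 genes of the table were (0.0137%). DESeq2 on the recovered reads called 1 of the 42 in those 5 libraries, Nusap1 (adjusted p = 0.0467), against 1.21% of the genes tested. With all 6 libraries DESeq2 called none of the 42 (lowest adjusted p 0.227), against 0.377%. The lean towards positive values rests on 2 irinotecan libraries, and since the members of a library share its RNA and scaling they are not 41 separate observations.

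Taken library by library, 27 of the 42 genes (64.3%) were above the control mean in both irinotecan replicates 2 and 3, against 33.3% of all tested genes. The authors' deposited table, built on all 6 libraries, gave positive log2 fold changes for 28 of the 42 and an adjusted p under 0.05 for none.

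A further 99 genes of mitosis, none of them among the 42, were all tested. None was called. Their median log2 fold change was 0.043, with 61 positive and 38 negative. Without irinotecan replicate 1 it was 0.083 with 75 positive (75.8%), a weaker lean than that of the 42 genes (0.146, 97.6% positive). An unadjusted p under 0.05 in the limma fit was reached by 4 of them, 3 with a positive and 1 with a negative fold change, against 5.77% of all tested genes. By list, 12 of 13 genes of condensin, cohesin release and topoisomerase were positive (median 0.188), 11 of 16 other kinesins, spindle and cytokinesis genes (0.17), 11 of 17 other subunits and regulators of the anaphase-promoting complex (0.061), 8 of 12 regulators of G2/M transcription (0.038), 7 of 13 other genes of mitotic entry (0.020) and 12 of 28 other kinetochore subunits (-0.016). Without irinotecan replicate 1 the counts and medians of these lists, in the same order, were 12 (0.124), 15 (0.124), 13 (0.116), 6 (0.0048), 9 (0.048) and 20 (0.063), which turns the sign for the kinetochore subunits.

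The 3 highest and 3 lowest of the 99 all came closer to 0 without irinotecan replicate 1. They were picked as the extremes of the fit that includes that library. The 3 highest are 11590 (Aspm), 10358 (Kif14) and 7558 (Rbl2) bases long. The 3 lowest are 3643 (Pkmyt1), 1126 (Cks1b) and 2452 (E2f4) bases long. Whether length goes with their values was not tested. Aspm, which focuses spindle poles, had 1905, 1923 and 1538 normalized counts in the controls and 3205, 1931 and 2442 in the irinotecan libraries (log2 fold change 0.47, SE 0.20, and 0.29 without replicate 1). Kif14, a kinesin of cytokinesis, and Rbl2, which encodes the p130 pocket protein of DREAM, had 0.44 (SE 0.19) and 0.41 (SE 0.26), and 0.24 and 0.098 without it. Pkmyt1, a kinase that holds CDK1 inactive, had 825, 607 and 669 in the controls and 145.8, 769 and 609 in the irinotecan libraries (-0.76, SE 0.54, and -0.022 without replicate 1). Cks1b, a small CDK-binding protein gene, and E2f4, the E2F of DREAM, had -0.50 and -0.46 (SE 0.24 each), and -0.20 and -0.15 without it. For all 6 genes irinotecan replicate 1 was the library farthest from the control mean.

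Some values may hold reads of other genes, since the sources used here do not state whether counting used strand. Of the 42 genes, 9 overlap a tested gene on the opposite strand: Ccna2, Cdc25b, Cdc25c, Cdc20, Cdca8, Kif20a, Kif4, Nusap1 and Prc1. Reads of the Ccnb1 and Ccnb2 pseudogenes (means of 18.9 and 81.1 normalized counts) may be shared with their parent genes.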

How the data were processed

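HISAT2 2.0.5, featureCounts 1.5.0-p3, DESeq2 1.20.0, fastp and CASAVA were used on GRCm38 (mm10), per the submitters' processing notes. The sources used here give no role for these tools, no annotation and no strand setting. A single table was deposited by the authors. Its library columns hold a normalized signal per gene, called normalized counts here, read counts divided by 1 factor per library, as the deposited values show: 100% were whole multiples of 1 step (tolerance 1e-06), so whole reads were recovered. The table also holds the authors' group means, log2 fold changes and p-values, raw and adjusted, as deposited per the file headers.

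The 14639 genes that averaged 10 or more normalized counts were tested with limma 3.58.1 (R 4.3.3, mean-variance trend, empirical Bayes) on log2(normalized count + 1), with Benjamini-Hochberg adjustment over all of them and a threshold of 0.05. That scale understates fold changes of low genes. All 3 samples per group were used, although the series text speaks of duplicates. DESeq2 1.42.0, edgeR 4.0.16 and limma-voom on recovered reads, other scalings, filters and pseudocounts, a replicate block, library weights and each library left out were alternatives. After the data were seen, removal of a trend on GC content and length, and 3 fits without irinotecan replicate 1, were added. GC content is the median over transcripts in GENCODE M21, with a value for 99.87% of genes. The fits were first tested on simulated data. Replicate numbers were not used to pair samples.

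The members and lists were chosen with earlier results of these data known. Genes named are all 42 members, the 3 highest and 3 lowest log2 fold changes among other mitotic genes, and every tested inhibitor of cyclin-dependent kinases. Marker genes were summed as normalized counts.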

Additional observations from a re-analysis of the deposited data

How the results depend on the processing

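Over 66 results and 21 alternatives, 1230 values were recomputed. The 52 named genes were not compared gene by gene in the 3 fits without irinotecan replicate 1 that were added later. In the other alternatives the log2 fold change of a named gene changed sign in 68 values, for 25 of 52 genes. None of those 25 genes was called in the fits so compared. Of 189 recomputed medians 18 changed sign, all by less than the spread between replicates. They were those of 4 roles: checkpoint and anaphase genes (to 0.0091 to 0.131), entry genes (to -0.019 without control replicate 3 and -0.0006 without irinotecan replicate 3), kinetochore genes (to -0.033 and -0.022 without the same libraries) and passenger genes (down to -0.068, without irinotecan replicate 3). Of the 42 members 19 never changed sign in the alternatives compared gene by gene. Those below did; the cause was not tested. Genes called higher numbered 29 with DESeq2, 30 with estimated library weights and 0 to 2 with a library left out. Genes called lower numbered 23 and 22 with the first 2 of these. In fits without irinotecan replicate 1 and with the trend on GC content and length removed, with edgeR, or with DESeq2, 1, 2 and 81 genes were called higher, and DESeq2 called 83 lower and 1 of the 42 members. Members with a positive value numbered 41 in each of these 3 fits and 22 to 41 with a library left out. Their median was 0.0068 without irinotecan replicate 3, 0.013 without control replicate 3, 0.116 without control replicate 1, 0.030 without irinotecan replicate 2, 0.029 with upper-quartile scaling, 0.025 with quantile scaling and 0.109 with library weights. The cytokinesis median was 0.064 with the trend removed, 0.066, 0.085 and 0.083 in the 3 fits, and 0.084 to 0.21 with a library left out. The median of the 99 other genes was 0.086 with edgeR without irinotecan replicate 1.

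With library weights the log2 fold change was 0.11 for Ccnb2, 0.13 for Plk1, 0.059 for Aurka, 0.053 for Mad2l1, 0.10 for Cdc20, 0.19 for Ube2c, 0.26 for Pttg1, 0.046 for Ndc80, 0.10 for Nuf2, 0.029 for Incenp, 0.012 for Tpx2, 0.020 for Gtse1 and 0.028 for Cdkn2d. With the trend removed it was 0.021 for Aurka, -0.028 for Bub3, -0.025 for Ttk, 0.12 for Cdc20, -0.0029 for Spc25, 0.12 for Incenp, 0.0082 for Kif2c, 0.021 for Gtse1 and -0.012 for Ect2. For Pttg1 it was 0.013 with edgeR and 0.015 with DESeq2, and with upper-quartile scaling it was -0.0084 for Spc25 and -0.0026 for Aurkb.

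With each library left out in turn the log2 fold change ran from -0.43 to 0.0015 for Cdk1, -0.31 to 0.18 for Ccnb2, -0.019 to 0.13 for Cdc25b, -0.64 to 0.25 for Plk1, -0.26 to 0.11 for Aurka, -0.061 to 0.15 for Bub3, -0.16 to 0.035 for Mad2l1, -0.17 to 0.15 for Cdc20, -0.40 to 0.23 for Ube2c and -0.33 to 0.34 for Pttg1. It ran from -0.022 to 0.14 for Cenpa, -0.20 to 0.071 for Ndc80, -0.17 to 0.12 for Nuf2, -0.11 to 0.17 for Spc25, -0.084 to 0.15 for Aurkb, -0.066 to 0.18 for Birc5, -0.17 to 0.14 for Incenp, -0.14 to 0.25 for Cdca8, -0.074 to 0.094 for Kif2c, -0.13 to 0.043 for Tpx2, -0.30 to 0.10 for Gtse1, -0.11 to 0.20 for Cdkn2c and -0.48 to 0.068 for Cdkn2d.

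Deviations from the group mean correlated at -0.114, -0.0087 and -0.213 between same-numbered samples, and at -0.05 to 0.158 between differently numbered ones. Deviations within a group of 3 depend on each other, so these values cannot decide whether the numbers pair the samples. With limma and the replicate block 0 genes were called higher and 0 lower. The members' median stayed at 0.047, and their lowest adjusted p was 0.905. With 3 samples a group and reads down to 254 for a member, differences under 2-fold were within the intervals of most members.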

Other observations

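Inhibitors of cyclin-dependent kinases, which hold cells before division, were measured beside the mitotic genes. Of the 4 that passed the filter none was called by limma, and 3 of the 4 had a positive log2 fold change. Cdkn1a, encoding p21, the p53 target that arrests the cycle after DNA damage, had 2154, 1794 and 2086 normalized counts in the controls and 1944, 2649 and 2356 in the irinotecan libraries. Replicates 2 and 3 lay above every control and replicate 1 within them, a log2 fold change of 0.20 (SE 0.16, adjusted p = 0.750), and 0.32 without replicate 1. Cdkn1b, encoding p27, had 828, 1075 and 799 in the controls and 961, 978 and 1078 in the irinotecan libraries (log2 fold change 0.17, SE 0.16). Cdkn2c, encoding p18, had a log2 fold change of 0.05 (SE 0.19), and 0.17 without irinotecan replicate 1. Cdkn2d, encoding p19INK4d, had 570.3, 656 and 537 in the controls and 296.7, 596 and 632 in the irinotecan libraries (log2 fold change -0.28, SE 0.28), with replicate 1 below every control, and 0.068 without it.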
